A study of Mus musculus with 2 samples.

Results

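The Lgr5-positive crypt base epithelial cells were 256 cells of the wild-type colon library, chosen cell by cell on the deposited corrected counts. A cell was taken when it held at least 5 counts of Epcam, which encodes the adhesion protein of epithelial cells, and at least 1 count of Lgr5. It also had to hold fewer than 20 counts of Muc2, the main goblet cell mucin, fewer than 20 of Chgb, a granule protein of enteroendocrine cells, and fewer than 10 of Reg4, which marks secretory cells of the deep colonic crypt. The 256 cells made up 8.51% of the 3008 cells with at least 5 counts of Epcam (95% Clopper-Pearson interval 7.54% to 9.57%) and 3.42% of the 7495 cells of the library. They are compared with the other 2752 Epcam-positive cells.

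The wild-type library came from the colon of female C57BL/6 mice aged 8 to 12 weeks, with cells of 3 mice pooled. Epithelium was detached first, the remaining tissue was digested, both fractions were sorted with antibodies to EpCAM and CD45, and epithelial and mesenchymal cells were mixed 1 to 1 before droplet sequencing with version 3 of the kit. The shares of the library therefore follow from a sort and a mix and are not shares of the tissue. A further library of the study came from the mesenchyme of Pdgfra-H2B-eGFP reporter mice, sorted for GFP. It held 4409 cells, shared 1 cell barcode with the wild-type library and entered no comparison here.

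Lgr5 is a receptor for R-spondins, secreted proteins that strengthen Wnt signalling, and it marks the stem cells at the base of the crypt. Wnt ligands from the surrounding fibroblasts and R-spondins keep these cells dividing, Notch signals hold back the secretory fate, and BMP signals, which increase towards the lumen, favour differentiation. The daughters of the stem cells divide a few more times as transit amplifying cells and become absorptive colonocytes, goblet cells, enteroendocrine cells or tuft cells.

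All values are corrected counts, that is, molecules counted per gene and cell after the authors had adjusted each cell to a common depth, and a level is the mean corrected count per cell. Levels of different genes are not compared with each other, because the counts are not scaled to length. Cells are not assigned to mice, so the library is 1 sample and no test was run. Ratios are log2 ratios of group means with 0.01 added to each, over the 12441 genes with a mean of at least 0.02 in the Epcam-positive cells, and a gene is called higher or lower from a 2-fold difference. Intervals cover counting error only. Because the same cells served to choose the group and to measure it, every difference below is a description.

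The values used for the choice were spread as follows. Lgr5 itself was low, with 147 cells at a corrected count of 1, 47 cells at 2 and 62 cells at 3 or more, and the highest cell held 9. The threshold thus separates cells at 1 from cells at 0. Epcam ranged from 5 to 73 with a median of 20.5, and 6 of the 256 cells lay below 10. The limits on secretory genes removed 19 of the 275 cells positive for both Epcam and Lgr5, and the chosen cells lay well inside them. Their highest Muc2 value was 10 against 23 in the nearest cell removed, their highest Chgb value was 10 against 69, and their highest Reg4 value was 4 against 10.

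Lgr5 was rare outside the epithelium. It was above 0 in 275 of 3008 Epcam-positive cells (9.14%), and in 14 of 1969 cells with no Epcam and at least 5 counts of Col1a1, a fibroblast collagen (0.711%, interval 0.389% to 1.19%). These fibroblast-type cells, with a median of 2797 genes detected, serve as a reference for shares of cells below. Their shares can include expression by these cells, where Smoc2 reached 13 counts, and are not a measure of noise alone. The Lgr5-positive cells had a median of 3425.5 genes detected.

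The label was checked against 3 crypt base genes that the choice did not use, Smoc2, a secreted matrix protein, Ascl2, a transcription factor of intestinal stem cells, and Axin2, a feedback inhibitor of Wnt signalling. Smoc2 lies at chr17:14279506-14404790 on the plus strand, Ascl2 at chr7:142966829-142969264 on the minus strand and Axin2 at chr11:108920349-108950783 on the plus strand, and Lgr5 itself at chr10:115450311-115587780 on the minus strand (GRCm38, GENCODE M21). Smoc2 was above 0 in 214 of 256 Lgr5-positive cells (83.6%), Axin2 in 158 (61.7%) and Ascl2 in 140 (54.7%). In the other Epcam-positive cells the shares were 13.3%, 15.04% and 7.70%, and in the fibroblast-type cells 3.96%, 5.18% and 0.152%. At least 2 of these 3 genes were above 0 in 190 of 256 Lgr5-positive cells (74.2%, interval 68.4% to 79.5%), and none of them in 19 cells (7.42%). Among the 1849 Lgr5-zero cells under the same limits, 191 held at least 2 of them (10.3%, interval 8.98% to 11.8%). When every cell was reduced at random to 6000 corrected counts, the share with Smoc2 was 71.5% in the Lgr5-positive cells and 9.12% in the other Epcam-positive cells. A count of 0 can be a molecule that was missed, so the 19 cells are not shown to lack these genes. The 191 Lgr5-zero cells that held at least 2 show that a count of 0 for Lgr5 does not mark a cell without the other crypt base genes.

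Smoc2, Axin2 and Cd44 had their highest means in the cells with most Lgr5. Smoc2 had a mean of 1.88 in the 147 cells at a Lgr5 count of 1, 2.68 in the 47 cells at 2 and 3.55 in the 62 cells at 3 or more, where 61 cells held it. Axin2 had means of 0.762, 1.26 and 1.5 in the same order. Cd44, the hyaluronan receptor and a Wnt target, stood at 2.11, 2.15 and 3.53. Ascl2 had its highest mean in the middle group, with 0.939, 1.38 and 1.18, and its shares of cells above 0 (49.7%, 59.6% and 62.9%) had overlapping intervals. Mki67, a protein of dividing nuclei, had means of 1.03, 1.28 and 2.13 and shares of 31.3%, 36.2% and 43.5%, whose intervals also overlapped. The median number of genes detected moved too, with 3359, 3506 and 3457.5 in the 3 groups, and its part in these steps was not tested.

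**Figure D1:**
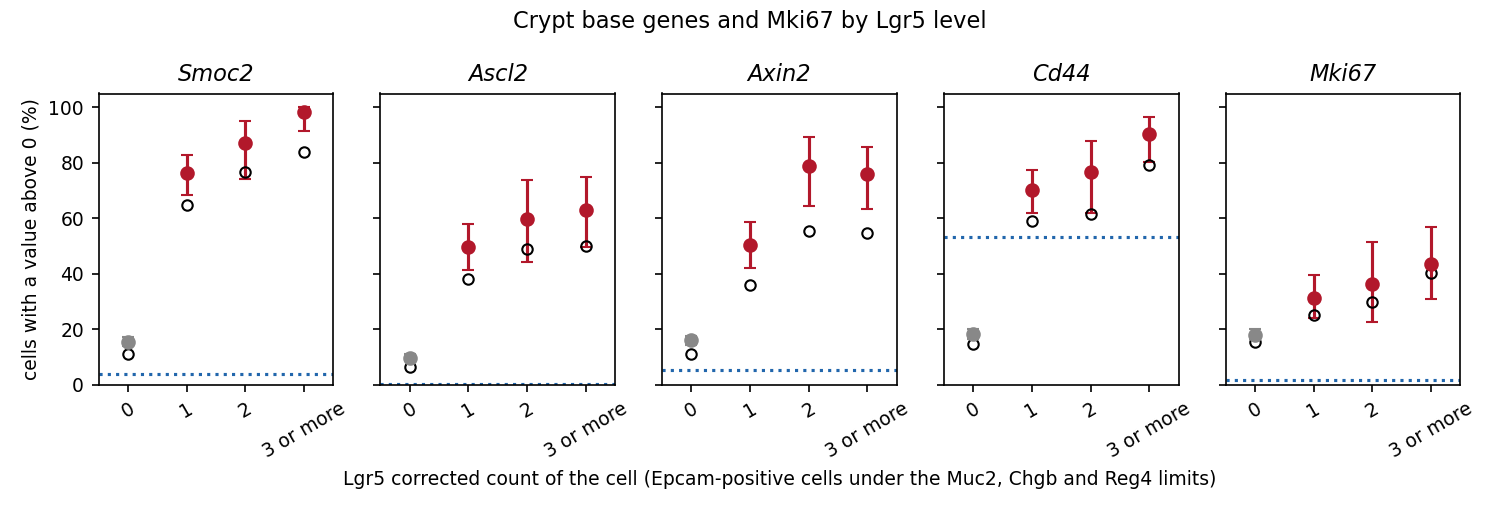
Share of cells with a value above 0 (vertical axis, %) for Smoc2, Ascl2, Axin2, Cd44 and Mki67 by the Lgr5 corrected count of the cell (horizontal axis). Filled points are shares with 95% Clopper-Pearson intervals, grey for Lgr5-zero cells and red for Lgr5-positive cells, open circles are shares after thinning each cell to 6000 corrected counts, and the dotted line is the share in fibroblast-type cells. Smoc2 goes from 15.4% at a Lgr5 count of 0 to 76.2%, 87.2% and 98.4%, while Cd44 lies at 53.2% in fibroblast-type cells. The dotted line can include expression by those cells, so it is no measure of noise alone.

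The Lgr5-positive cells held more genes per cell than the rest of the epithelium. The median was 3425.5 genes against 3105 in the other Epcam-positive cells and 3045 in the Lgr5-zero cells under the same limits, although the total corrected counts were alike (medians of 9635, 9649.5 and 9583). The median log2 ratio over all 12441 genes was 0.21. For this reason groups of genes are also given in the cells between 3211 and 3612 genes detected, the middle range of the Lgr5-positive cells. This left 128 Lgr5-positive and 819 other Epcam-positive cells, called matched cells below, and a median log2 ratio over all genes of 0.01. Over all cells, 1460 genes were at least 2-fold higher in the Lgr5-positive cells (11.7% of the genes measured) and 1041 at least 2-fold lower (8.37%), and in matched cells 624 were higher and 1407 lower, so that more genes were lower than higher there. Matching also changed the mix of the other cells. Of the 819, 475 were Lgr5-zero cells under the same limits, against 1849 of 2752 before matching, and the rest lay outside the limits. The part of this mix in the matched values was not tested.

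The 25 leading genes, those with the highest ratio over the other Epcam-positive cells among 9139 genes with a mean of at least 0.1, began with Smoc2, Ascl2 and Cd44. Smoc2 had a mean of 2.43 against 0.202 (log2 ratio 3.53), Ascl2 1.08 against 0.118 (3.09) and Cd44 2.46 against 0.339 (2.82). In matched cells these ratios were 2.92, 2.59 and 2.26. Axin2 followed with 1.03 against 0.178 (2.47, and 1.73 in matched cells). These 4 are known crypt base genes.

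Acot1, a thioesterase that releases fatty acids from coenzyme A, had a mean of 1.52 against 0.226 (log2 ratio 2.70) and was above 0 in 195 of 256 cells. Nox1, the superoxide-producing oxidase of the colonic epithelium, stood at 0.824 against 0.132 (2.56), and Noxa1, the activator of that enzyme, at 1.51 against 0.379 (1.97). Both genes were thus higher than in the other Epcam-positive cells. Rgcc, a regulator of the cell cycle, had 2.42 against 0.415 (2.52), and Cdk6, a kinase of the G1 phase, 2.11 against 0.446 (2.22). The chloride channel accessory gene Clca3b reached 8.61 against 1.68 (2.35) and was above 0 in 241 cells. Kcnq1, a potassium channel, had 1.59 against 0.351 (2.15). Sox4, a transcription factor of progenitors, had 5.81 against 1.14 (2.34).

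The remaining leading genes were Cdca7, Fut9, Cox6b2, Vav3, Zbtb38, Bex4, Tpbg, Gkap1, Efna4, Mcc, Ntrk2, Cnn3, Phgdh and Tenm4, with ratios from 2.11 to 2.33. Only 8 of the 25 belong to the list of known stem cell genes used here. None of the 25 rested on a single cell, since leaving out the highest Lgr5-positive cell of each gene kept all of them at least 2-fold higher.

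Most leading genes were also higher than in dividing cells without Lgr5. The 334 dividing Lgr5-zero cells had at least 1 count of Mki67 and met the same limits, and they matched the Lgr5-positive cells in genes detected, with a median of 3421.5. Against them 684 genes (5.5%) were at least 2-fold higher and 455 (3.66%) at least 2-fold lower. Of the 25 leading genes, 20 were at least 2-fold higher, with Smoc2 at 2.53, Ascl2 at 2.12 and Cd44 at 2.06. The 5 that were not were Nox1 (0.9997, with a mean of 0.407 in the dividing cells), Cdca7 (0.99), Ntrk2 (0.83), Phgdh (0.83) and Cox6b2 (0.56). For all 25 the mean of the dividing cells lay between those of the other groups. Among cells with Mki67 24 of the 25 were at least 2-fold higher in those with Lgr5, and among cells without Mki67 all 25 were.

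**Figure D2:**
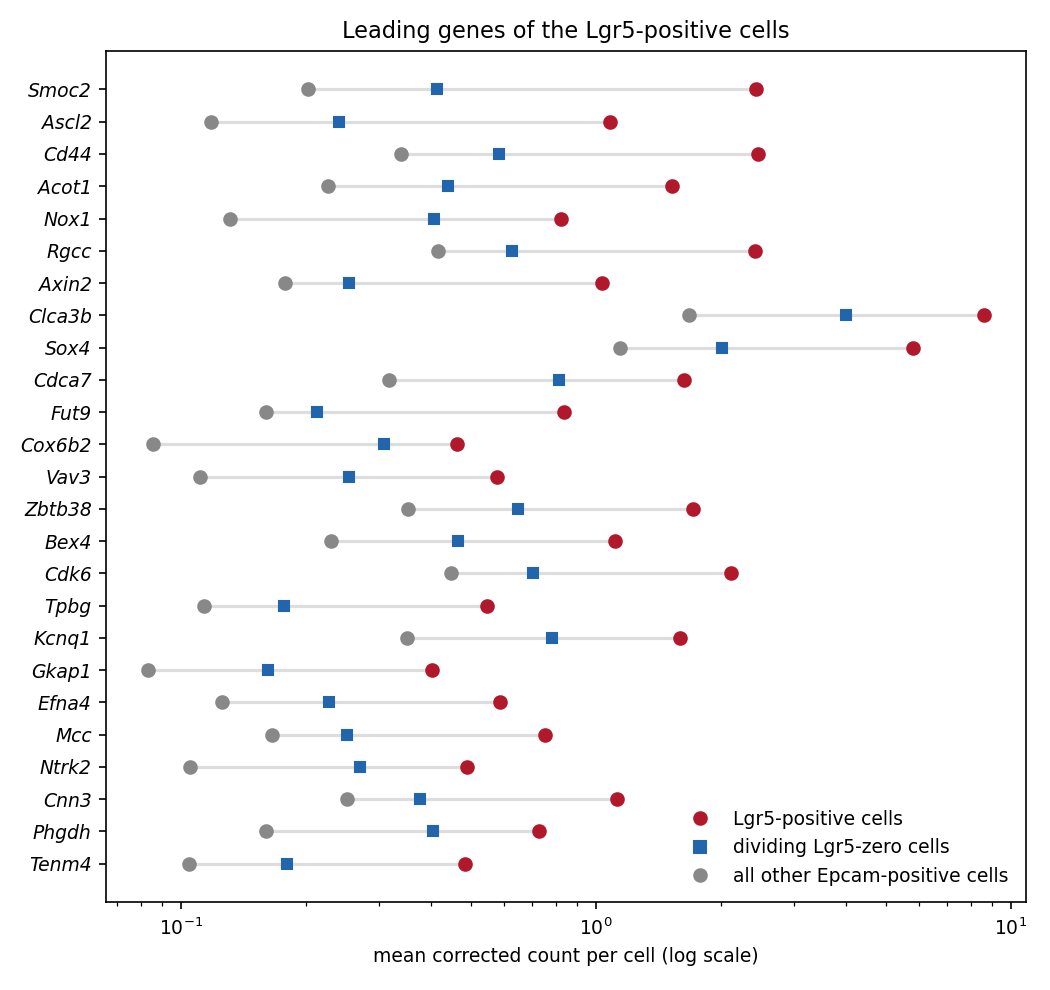
Mean corrected count per cell (horizontal axis, log scale) of the 25 leading genes in Lgr5-positive cells (red, 256 cells), dividing Lgr5-zero cells (blue squares, 334 cells) and all other Epcam-positive cells (grey, 2752 cells). For every gene the dividing cells lie between the other groups, for example Smoc2 with 2.43, 0.413 and 0.202.

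Since Wnt targets were among the leading genes, the promoters were searched for the core letters bound by TCF and LEF factors, which carry the Wnt signal to DNA. The search was for CTTTGAA on both strands, and likewise for CTTTGAT as well as for CTTTGTA and also for CTTTGTT, in the 250 bases before each RefSeq gene start (GRCm38.p6); the 4 share their first 5 letters, and no position on a strand can match more than one of them. Of 32851 starts, 14.8% held at least 1 match. Among the leading genes 20 of 25 had an entry and 5 had a match at any start (23.1% of their 26 starts), and among the Wnt targets and feedback genes 3 of 12 with an entry had one (15.8% of 19 starts). Acot1 and Sp5, a transcription factor induced by Wnt, held 2 matches each and are shown because one is a leading gene and the other a Wnt target. The matches of Acot1 begin 211 and 174 bases before the start, and those of Sp5 222 and 104 bases before it. Both stretches run from 250 to 51 bases before the start on the plus strand, at chr12:84009252-84009451 for Acot1 and chr2:70474673-70474872 for Sp5, and capitals mark the matches (AACAAAG is CTTTGTT on the other strand).
Acot1: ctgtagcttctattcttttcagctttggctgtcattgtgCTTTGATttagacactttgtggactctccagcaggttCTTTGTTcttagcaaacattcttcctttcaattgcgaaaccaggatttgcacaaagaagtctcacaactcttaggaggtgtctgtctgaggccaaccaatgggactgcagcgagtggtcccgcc
Sp5: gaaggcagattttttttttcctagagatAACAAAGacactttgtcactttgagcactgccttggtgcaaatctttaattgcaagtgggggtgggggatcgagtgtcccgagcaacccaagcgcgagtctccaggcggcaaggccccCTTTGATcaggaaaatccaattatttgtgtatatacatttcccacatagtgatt
A match describes letters in these windows and no binding was measured.

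Known stem cell genes were higher as a group. Of 23 listed genes that passed the filter, 16 were at least 2-fold higher and 2 lower than in the other Epcam-positive cells (median log2 ratio 1.95 against 0.21 for all genes), and in matched cells 15 were higher (median 1.52). Against dividing Lgr5-zero cells 15 were higher and 1 lower (median 1.36). Slc12a2, a sodium, potassium and chloride cotransporter, was abundant, with 9.49 against 2.87, and was above 0 in 252 of 256 cells. Lrig1, which restrains EGF receptors, had 1.07 against 0.311, and Rgmb, a BMP co-receptor, 0.746 against 0.225. The RNA-binding genes Msi1 and Mex3a were low but higher, with 0.0977 against 0.0178 and 0.207 against 0.0429. Scn2b, a sodium channel subunit, was above 0 in 60 cells, and its mean of 0.297 against 0.0131 gave the highest ratio of the list (3.73). Aqp4, a water channel, went the other way with 0.988 against 2.52. The other lower gene had the lowest ratio of the list (-1.53). Prom1, which encodes CD133, was alike in both groups, with 0.656 and 0.742.

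Genes that Wnt signalling induces or that feed back on it lay on the same side. Ascl2, Axin2, Cd44, Sox9 and Tnfrsf19 stand in this list and in the stem cell list. Ephb2 and Ephb3 stand in this list and in that of Eph receptors and ephrins. The stem cell list also shares Cdca7 with the S phase list and Lrig1 with the EGF list. Of 17 Wnt targets and feedback genes that passed the filter, 12 were at least 2-fold higher and 0 lower (median 1.38). In matched cells 7 were higher and 1 lower (median 0.84), and 9 were higher than in dividing Lgr5-zero cells (median 1.08). Rnf43 and Znrf3, ligases that remove Wnt receptors from the cell surface, had means of 0.816 against 0.203 and 0.398 against 0.132. Myc, the growth regulator, had 0.805 against 0.368, and Ccnd1, cyclin D1, 1.90 against 0.624. Ccnd2, cyclin D2, was nearly level at 2.21 against 1.78. Sp5 was above 0 in only 19 of 256 cells, with 0.082 against 0.0164.

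The receptors themselves differed little. Of 20 Wnt receptors and effectors 3 were higher and 1 lower (median 0.31, and -0.10 in matched cells). Over all genes 11.7% were higher and 8.37% lower. The Frizzled receptors Fzd2 (0.168 against 0.0458), Fzd7 (0.340 against 0.0963) and Fzd3 (0.195 against 0.0832) were the 3 higher genes. In matched cells Fzd3 was not past 2-fold (0.88). The lower gene had a ratio of -1.51. It was not Fzd5, which had 0.434 against 0.633 and was not called. Lgr4, the relative of Lgr5, was level with 0.738 against 0.755, and so were the co-receptor Lrp6 (0.473 and 0.459) and beta-catenin, Ctnnb1 (2.32 and 2.41).

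Among the Notch genes past 2-fold, receptors and targets were higher and ligands lower. Notch1 had 0.691 against 0.176 and Notch2 0.117 against 0.0523. The Notch targets Hes1 and Nrarp had 3.11 against 1.36 and 0.496 against 0.199. The ligands Dll1 and Dll4 were lower, with 0.0625 against 0.198 and 0.0781 against 0.168. These 6 genes were the ones called among 13, with 4 higher and 2 lower (median 0.47). The same 4 and 2 counts were found in matched cells (median -0.03), where a larger share of the other cells lay outside the limits on Muc2, Chgb and Reg4. Against Lgr5-zero cells under the same limits, a group without the secretory cells outside them, 1 Notch gene was higher, Notch1 (1.51), and 0 were lower, with Dll1 at -0.63 and Dll4 at 0.46. Against dividing Lgr5-zero cells none of the 13 passed 2-fold.

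BMP and EGF genes gave mixed values, and the share of higher genes among the BMP genes was near the 11.7% of all genes. Of 15 BMP receptors and response genes, 2 were higher and 0 lower, Acvr2b (0.227 against 0.0905) and Smad4 (1.34 against 0.640). In matched cells 1 was higher and 1 lower, and Smad4 had a ratio of 0.68. Against the others over all cells the BMP response genes Id1 (4.30 and 3.49), Id2 (1.05 and 0.904) and Id3 (1.51 and 1.66) were close to level. Of 18 EGF receptors, ligands and feedback genes, 4 were higher and 3 lower (median 0.16). Etv4, a transcription factor downstream of receptor signalling, had 0.590 against 0.138, whereas Etv5 (0.141 against 0.304) and the phosphatase Dusp6 (0.414 against 0.882) were lower. The other lower gene had the lowest ratio of the list (-1.76). The values of Dusp6 and Etv5 depended on the comparison. In matched cells Dusp6 was at -0.82 and Etv5 at -1.59. Against Lgr5-zero cells under the same limits, where 1 gene of the list was lower, Dusp6 was at -0.87 and Etv5 on the other side at 1.39. In matched cells 4 genes of the list were higher and 2 lower (median 0.02). The ligand Ereg reached 18 in 1 cell and was above 0 in 23 cells.

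Some receptors that place cells along the crypt and some other niche receptors were higher. Over all 12441 genes 11.7% were higher and 8.37% lower, and in matched cells 624 genes were higher and 1407 lower. The genes named from these lists are examples. Of 13 Eph receptors and ephrins, 5 were higher and 1 lower (median 0.68, and 0.50 in matched cells). Ephb3, a Wnt-induced receptor, had 0.551 against 0.205, Epha4 0.520 against 0.178 and Efna4 0.586 against 0.126, while the ligand Efnb2 was lower with 0.254 against 0.642. In matched cells 3 were higher and 0 lower, and Ephb3 (0.84) and Efnb2 (-0.90) were no longer past 2-fold. Ephb2 differed less, with 0.477 against 0.295. Of 21 other receptors and adhesion genes, 4 were higher and 0 lower (median 0.41, and 0.33 in matched cells with 3 higher and 2 lower), namely Igf1r (0.523 against 0.160), the Hedgehog signal transducer Smo (0.312 against 0.101), Fgfr4 (0.379 against 0.141) and Fgfrl1 (0.320 against 0.154), of which Fgfrl1 was not past 2-fold in matched cells (0.44). Igf1r, Smo and Fgfrl1 were also at least 2-fold higher than in dividing Lgr5-zero cells, with ratios of 1.10, 1.13 and 1.52.

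**Figure D3:**
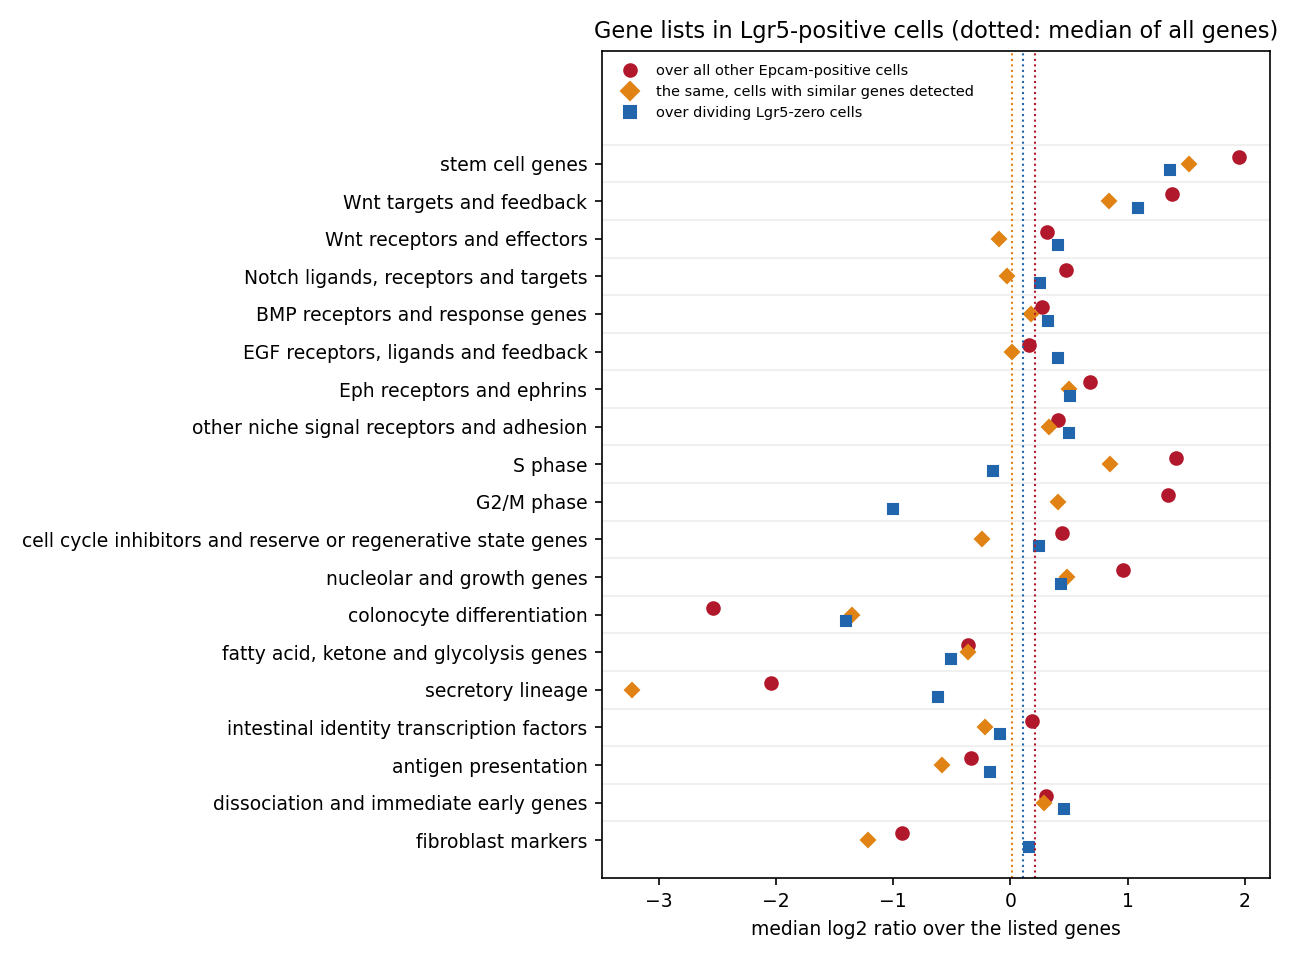
Median log2 ratio (horizontal axis) of the genes of each list (vertical axis) in Lgr5-positive cells over all other Epcam-positive cells (red), over the same in matched cells (orange diamonds) and over dividing Lgr5-zero cells (blue squares). Dotted lines are the medians of all genes (0.21, 0.01 and 0.11). Stem cell genes lie at 1.95, 1.52 and 1.36, whereas the G2/M genes change side, with 1.34, 0.40 and -1.0. The dividing cells were chosen by Mki67, itself in the G2/M list, so their higher G2/M genes follow from that choice.

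The Lgr5-positive cells held more of the cell cycle genes than the epithelium as a whole. Mki67 was above 0 in 90 of 256 cells (35.2%, interval 29.3% to 41.3%), against 15.6% of the other Epcam-positive cells and 1.52% of the fibroblast-type cells. After thinning the shares were 29.7% and 12.8%. Of 42 S phase genes 35 were at least 2-fold higher and 0 lower (median 1.41), and of 52 G2/M genes 44 were higher and 0 lower (median 1.34). Mcm6, part of the replicative helicase, had 1.29 against 0.317, and Top2a, the topoisomerase of dividing cells, 1.39 against 0.520.

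These ratios depended on the number of genes detected. The summed S and G2/M genes had a log2 ratio of 1.11 over all cells and 0.46 in matched cells, where 14 S phase genes and 2 G2/M genes were at least 2-fold higher (medians 0.85 and 0.40). Mki67 in matched cells had means of 1.03 and 0.927. The matched Lgr5-zero cells under the same limits held 153 cells with Mki67 of 475, against 334 of 1849 before matching, so that genes detected and division moved together and cannot be told apart here. In matched cells S phase genes such as Hells, a chromatin remodeller (ratio 1.60 against 2.08 in all cells), and Mcm4 (1.43 against 1.99) stayed above 2-fold.

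When cells were compared within the same Mki67 state, few cell cycle genes differed by 2-fold between cells with Mki67. The 90 Lgr5-positive cells with Mki67 had a mean of 32.6 summed S phase counts and 113 summed G2/M counts per cell, against 24.1 and 99.2 in the 334 dividing Lgr5-zero cells, and 1 of 42 S phase and 1 of 52 G2/M genes were at least 2-fold higher, with 0 lower (6.51% of all genes were higher and 6.39% lower). The S phase genes lay mostly above the others (median log2 ratio 0.44, from -0.21 to 1.13), and the median S phase sum was 26.5 against 12, although the quartiles of both sums overlapped. The 166 Lgr5-positive cells without Mki67 had 16.5 S phase counts against 6.18 in the 1515 Lgr5-zero cells without Mki67, and 31 of 42 S phase genes were at least 2-fold higher (of all genes 15.4% were higher and 7.56% lower). Their G2/M counts were 13.6 and 12.6. A Mki67 count of 0 does not show that a cell was outside the cell cycle. These 2 groups without Mki67 also differed in genes detected, with medians of 3339 and 2988. The part of both in the S phase difference was not tested. The stem cell genes did not follow the split by Mki67, with sums of 38.6 in Lgr5-positive cells with Mki67 and 35.8 in those without.

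**Figure D4:**
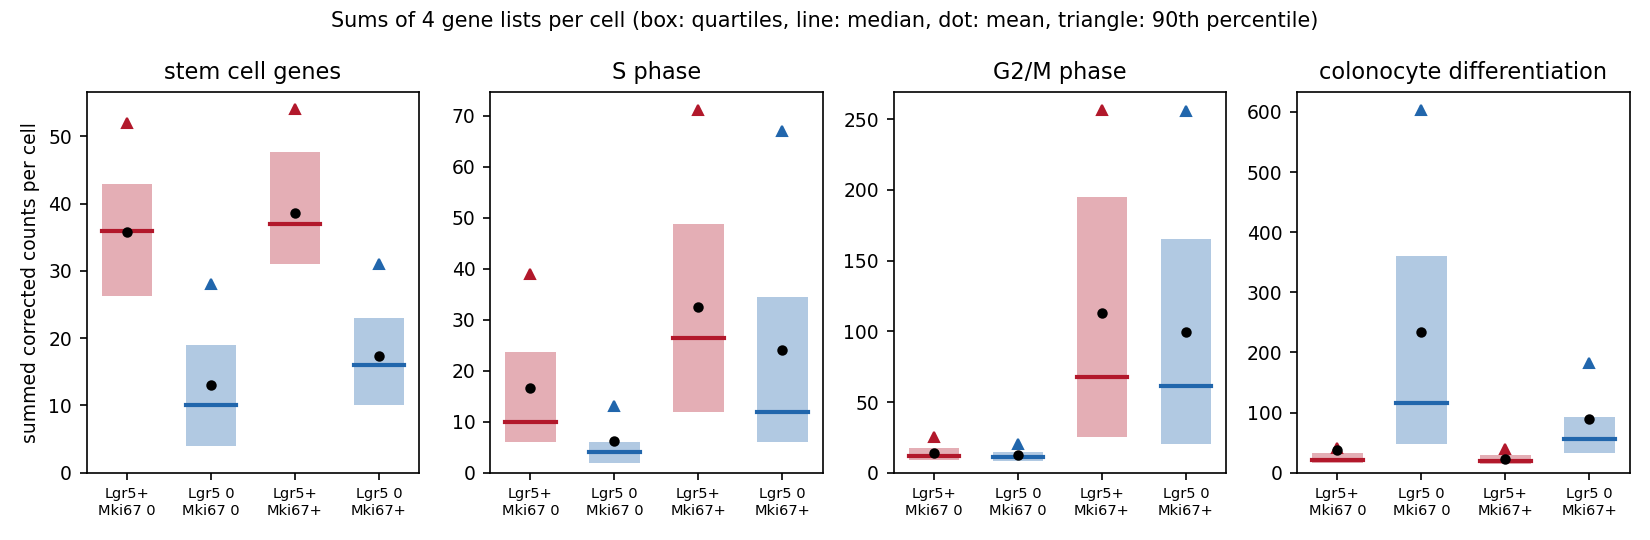
Summed corrected counts per cell (vertical axes, each from 0) of 4 gene lists in cells with Lgr5 (red) and without Lgr5 under the same limits (blue), each without Mki67 (166 and 1515 cells) and with Mki67 (90 and 334 cells). Boxes span the quartiles, lines are medians, dots means and triangles the 90th percentile. The median of the stem cell genes is 36 and 37 in the Lgr5-positive cells against 10 and 16 without Lgr5. The G2/M list holds Mki67, the gene that split the cells. Higher G2/M sums in cells with Mki67 therefore follow from the choice of cells.

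Genes of growth were higher in the Lgr5-positive cells. Of 25 nucleolar and growth genes 12 were at least 2-fold higher and 0 lower (median 0.96, and 0.48 in matched cells with 5 higher). Nucleolin, Ncl, had 5.97 against 2.39, nucleophosmin, Npm1, 14.4 against 6.33 and was above 0 in all 256 cells, and Dkc1, which modifies ribosomal RNA, 0.832 against 0.246. The summed counts of 94 ribosomal protein genes were 2416 per cell against 1633 in the other Epcam-positive cells and 1951 in the dividing Lgr5-zero cells. Against dividing cells none of the 25 growth genes passed 2-fold (median 0.43).

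Genes of mature absorptive colonocytes were lower. Of 25 genes, 22 were at least 2-fold lower and 0 higher than in the other Epcam-positive cells (median -2.54), and 18 were lower in matched cells (median -1.35) and 18 against dividing Lgr5-zero cells (median -1.40). Guca2a, the hormone guanylin, had 0.688 against 14.1 and was above 0 in 48 of 256 cells, compared with 78.7% of the others. Slc26a3, the chloride and bicarbonate exchanger, had 0.113 against 1.15, the surface keratin Krt20 0.133 against 1.90, and Hsd11b2, which inactivates glucocorticoids, 0.188 against 4.75. Saa1, an acute phase protein, had 0.105 against 4.11. Hsd11b2 and Saa1 were also among the 10 genes lowest against dividing Lgr5-zero cells, with Sprr1a, Cwh43, Fcgbp, Gsdmc4, AA467197, Zbtb7c, Dpep1 and Gm3336. The median of the summed colonocyte genes was 22 per cell in the Lgr5-positive cells and 56 in the dividing Lgr5-zero cells. Vil1, villin, and Ceacam1 were closer to level, with 1.25 against 1.58 and 4.05 against 5.70.

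One cell carried most of the carbonic anhydrase Car1. Its value was 884 in that cell, which had a Lgr5 count of 1 and 0 for Smoc2, Ascl2 and Axin2, and Car1 was above 0 in 47 of 256 cells. The mean was 4.44 with this cell against 25.8 in the other Epcam-positive cells.

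The genes with the lowest ratios over the other Epcam-positive cells included genes of goblet cells, among them Zg16 (0.137 against 19.8), Clca1 (0.0469 against 5.64), Fcgbp (0.0391 against 3.93) and Spink4 (0.586 against 44.2). Atoh1 and Spdef, the transcription factors of the secretory lineage, had 0.0273 against 0.694 and 0.0586 against 1.06. With no limits on Muc2, Chgb and Reg4 the ratio of Zg16 was -4.74 and that of Clca1 -3.07, so that both were lower without these limits too. Sval1, Mptx1, Nov, Ccl6, Gm1123, Best2, Retnlb, Ang4, Sprr1a and the endocrine genes Gcg and Tph1 made up the rest of the 15 lowest. Without the limits Gcg changed side, to 0.84, while the others of these 15 stayed at least 2-fold lower. Of 22 secretory genes 15 were lower and 2 higher (median -2.04). Against Lgr5-zero cells under the same limits, where 12.6% of all genes were higher and 6.75% lower, 8 secretory genes were lower and 5 higher (median -0.12). In matched cells, where the other group again includes cells outside the limits, 19 were lower and 1 higher (median -3.23).

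A few of the 256 cells held high values of other lineages. One cell with a Lgr5 count of 2 held 187 counts of Pyy, 130 of Insl5 and 50 of Pcsk1n, genes of enteroendocrine L cells, and 15 of Dclk1, with a Chgb count of 1 and 0 for Smoc2, Ascl2 and Axin2. It gave most of the mean of Pyy (0.805, and 0.0745 without it). Pyy, Insl5 and Pcsk1n accordingly led the ratios over dividing Lgr5-zero cells, and 3 of the 15 highest ratios of that comparison fell below 2-fold without the highest cell. Eln and Col14a1, genes of stromal matrix, were also among these 15. Each was above 0 in 11 of the 256 cells, with highest values of 15 and 18, and their means were 0.184 against 0.0269 and 0.160 against 0.0240, beside 4.50 and 3.43 in the fibroblast-type cells. Prss23, Tacc1, Lbh, Cldn14 and Sorcs2 completed the 15 with Smoc2, Ascl2, Cd44 and the endocrine genes Resp18 and Cck. Another cell, with a Lgr5 count of 1, held 33 counts of Dclk1, a marker of tuft cells, and Dclk1 was above 0 in only 3 of the 256 cells. The limits of the choice use Chgb and no tuft gene, and both cells passed them.

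Markers of other cell types were low. The summed counts of 10 fibroblast markers had a median of 0 and a mean of 5.90 per Lgr5-positive cell, against a mean of 13.0 in the other Epcam-positive cells and 336 in the fibroblast-type cells, and they reached 20 or more in 19 of 256 cells (7.42%) and 327 of 2752 others (11.9%). Against the other Epcam-positive cells 4 of these markers were at least 2-fold lower and 0 higher. The summed endothelial markers had means of 0.371 and 0.578 over all cells, but 0.539 and 0.267 in matched cells, where 2 of 6 were higher and 0 lower. No immune marker passed the filter, and their sums were 0.043 and 0.0309. The sort had kept only cells negative for CD45, so low immune markers follow from the sort. In matched cells 6 of the 10 fibroblast markers were lower than in the others and 0 higher (median -1.21). Compared with matched dividing Lgr5-zero cells, however, 9 of 10 fibroblast markers (1.65 against 0.418 summed counts per cell), all 6 endothelial markers (0.539 against 0.0196) and 3 of 5 muscle, pericyte and glia markers (0.578 against 0.0719) were at least 2-fold higher. Their part in that comparison was not tested. Without the cells at 20 or more, the counts of genes called in each comparison stayed within 1.5 times of their values. Doublets were not resolved, since the caller marked 7 of 7495 cells, none of them Lgr5-positive.

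Immediate early and heat shock genes, which respond to tissue dissociation, were detected in all groups. None of 12 passed 2-fold (median 0.30, and 0.28 in matched cells). Fos had 15.5 against 11.7, Jun 16.8 against 11.4 and Hspa1a, the inducible heat shock protein, 7.05 against 3.71. The mitochondrial share of corrected counts was alike, with medians of 9.62% and 9.61%.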

How the data were processed

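Droplet libraries of mouse colon were aligned by the authors with Cell Ranger to mm10 and processed in R (version 3.6.2) with Seurat (version 3.1), per the labels and the study's methods. Each of 2 libraries was deposited in 2 forms. Of these, 1 table held whole numbers that the authors had already adjusted per cell with SCTransform, and this corrected count is treated here as a score and not as raw reads. The other deposited table held the natural log (ln) of 1 plus the same values, as checked over the tables. No count model was therefore used. Adjustment to a common depth removes most of the spread in totals, which ran from 6120 to 16389 per cell (median 8972) in the wild-type library, and does not equalize the number of genes detected.

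Cells were grouped by the corrected counts named in the report. For each gene the mean corrected count per cell was taken, with a pseudocount of 0.01, a minimum mean of 0.02 and a 2-fold call. Shares carry 95% Clopper-Pearson intervals, which cover counting error only. With 3 mice pooled in 1 library, there is no replicate error and no p-value. The genes named were drawn from the 25 highest and 15 lowest ratios over the other Epcam-positive cells, the 15 highest and 10 lowest over dividing Lgr5-zero cells (means of at least 0.1), and genes of lists by pathway and cell type, of which examples are given. The cells and lists were chosen with earlier results of these data known. Scrublet in scanpy (version 1.11.5) was run for doublets. Scripts used Python 3.11.15, numpy 2.4.6, scipy 1.17.1, pandas 2.3.3 and matplotlib 3.10.9, and the ratios were tested on simulated data. Positions follow GENCODE M21 (GRCm38) and promoter sequences RefSeq (GRCm38.p6). Alternatives covered the limits of the choice, mitochondrial share, doublets, genes detected, thinning, pseudocount, filter and scaling.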

Additional observations from a re-analysis of the deposited data

Results flagged for a closer look

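Outside the epithelial cells, Lgr5 was above 0 in 27 of 4487 cells with fewer than 5 counts of Epcam (0.602%, 95% Clopper-Pearson interval 0.397% to 0.874%). This is listed because the group comparisons above use only cells with at least 5 counts of Epcam. Fibroblast-type cells, used above as a reference, make up 14 of the 27. The highest Lgr5 count was 6 among the 27 cells and 2 among the fibroblast-type cells. All 27 held Vim and 26 held Col1a1, both mesenchymal genes, 15 held Pdgfra and 17 held Acta2, while 12 held the epithelial keratin Krt8 (44.4%). Krt8 was above 0 in 56.8% of all 4487 cells, so it does not set the 27 apart. Over the 4487 cells the shares of Smoc2, Axin2 and Ascl2 were 3.21%, 4.21% and 0.245%. Shares of the mesenchymal genes over these cells are not given here. Smoc2 and Axin2 were above 0 in 3 of the 27 cells each, and Ascl2 in none, which allows a share of up to 12.8% (upper bound of the interval). The origin of this Lgr5 signal was not tested.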

How the results depend on the processing

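No paired analysis was possible because the wild-type library is 1 sample and both libraries carry only replicate number 1. The share of Lgr5-positive cells with Mki67 ran from 29.7% to 41.1% over the alternatives. With a Lgr5 limit of 2, which left 109 cells, the chosen cells were 3.62% of the Epcam-positive cells and 686 genes were lower than in dividing Lgr5-zero cells. In cells below 10% mitochondrial corrected counts (141 Lgr5-positive), 1390 genes were higher than in dividing cells. In the 128 Lgr5-positive cells matched on genes detected, 624 genes were higher than in the other Epcam-positive cells and 432 than in Lgr5-zero cells, 1236 were higher and 697 lower than in dividing cells, and the summed cell cycle genes had a log2 ratio of 0.46. With a pseudocount of 0.1, 436 genes were higher and 497 lower than in the others, 370 and 435 against Lgr5-zero cells, and 96 and 187 against dividing cells. With a minimum mean of 0.1 the higher genes were 894, 934 and 244 in the same order. The pseudocount and the filter act by construction on low genes, and the other causes were not tested.

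Over the 200 ratios past 2-fold of genes named here, none reversed with thinning, scaling to the group's total, a Lgr5 limit of 2 or doublets left out. Counted over all alternatives, 2307 values stayed within 1.5 times of the main ratio, 282 moved further and 11 reversed. Of those that moved, 70 came with a pseudocount of 0.1, 57 in matched cells, 48 below 10% mitochondrial counts and 32 with a Lgr5 limit of 2. The reversals were in Pyy, Insl5, Gcg, Cck and Dclk1. Pyy against dividing cells became -0.070 with an Epcam limit of 10, -0.034 below 10% mitochondrial counts, -0.14 in matched cells and -0.060 without its highest cell. Against the others, without limits on Muc2, Chgb and Reg4, Pyy became 0.43, Insl5 0.35 and Gcg 0.84, and Cck against dividing cells -1.17. Insl5 against dividing cells became -0.86 below 10% mitochondrial counts. Dclk1 in matched cells became -1.56 and -0.73. The tuft marker median became -0.25 in matched cells against each of these groups. Leaving out the highest cell, leaving out cells with fibroblast markers, and the list medians in matched cells were chosen after seeing the data.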

Other observations

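Of 23 fatty acid, ketone and glycolysis genes 4 were at least 2-fold lower and 1 higher than in the other Epcam-positive cells (median log2 ratio -0.36, and -0.36 in cells matched on genes detected). The hexokinases Hk1 and Hk2, which start glycolysis, had means of 0.102 against 0.407 and 0.715 against 2.28, the aldolase Aldoa 2.12 against 5.92, and the lactate dehydrogenase Ldha 2.20 against 4.46. Ldhb, the other lactate dehydrogenase subunit, was higher with 0.531 against 0.124. In matched cells 3 were lower and 1 higher, with Ldha at -0.61, and over all cells 1 of the 23 was lower than in dividing Lgr5-zero cells, Hk1 (-1.46).

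Genes linked to reserve or regenerating states and cell cycle inhibitors gave 1 higher and 4 lower of 11 (median 0.44, and -0.25 in matched cells with 1 higher and 2 lower). Hopx, named for reserve stem cells, was above 0 in 246 of 256 cells, with 3.86 against 1.59. Ly6a (0.383 against 1.98) and Anxa1 (0.441 against 1.43), genes of the regenerating epithelium, were lower, as was the inhibitor Cdkn1a (1.58 against 3.31). In matched cells Hopx (0.69) and Cdkn1a (-0.39) were not past 2-fold, and Anxa1 was just short of it (-0.99988). Of 22 intestinal identity factors 2 were higher and 1 lower (median 0.18, and -0.22 in matched cells with 0 higher and 2 lower), and Hoxb6 (0.496 against 0.166) and Hoxb13 (0.887 against 2.28) lay on opposite sides, while Cdx1 had 2.34 and 2.43. Of 9 antigen presentation genes 0 were higher and 1 lower (median -0.34, and -0.58 in matched cells with the same counts), the class I gene H2-D1 with 2.19 against 4.93. Over all genes 11.7% were higher and 8.37% lower. The counts of the identity and antigen presentation lists over all cells were near those shares, and the genes named from them are examples.

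Tuft markers rested on a handful of cells. All 3 that passed the filter were at least 2-fold higher (median 1.45), although 15 of the 256 cells held any and 92.9% of the summed counts lay in 5 cells, and in matched cells 0 were higher and 1 lower. Of 5 muscle, pericyte and glia markers 1 was higher and 1 lower, and 2 and 1 in matched cells. Of 6 endothelial markers 0 were higher and 1 lower over all cells, whereas 2 were higher and 0 lower in matched cells (median 0.78).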
